A study of Mus musculus with 12 samples.

Results

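NRF2, the transcription factor encoded by Nfe2l2, its inhibitor Keap1 and 8 antioxidant genes were followed across 4 conditions in HT22 cells, an immortalized mouse hippocampal neuronal line. The 10 genes were picked by name, with earlier results of these data known, and make up 10 of the 24343 genes in the tables. They are Nfe2l2, Keap1, Txnrd1, Srxn1, Txn1, Prdx1, Sod1, Sod2, Cat and Gsr. RNA-seq covered 12 libraries, 3 biological replicates per group. The siControl cells received a negative control siRNA, the siNCOA4 cells an siRNA against Ncoa4, and both were also measured with the iron chelator deferoxamine (DFO, 100 µM for 24 h), named siControl+DFO and siNCOA4+DFO here. All 4 groups are thus transfected cells of 1 line, and the knockdown rests on a single siRNA sequence, which limits both as models. NCOA4 is the receptor that carries ferritin to the lysosome for iron release, so the design asks how loss of ferritin turnover, shortage of imported iron, or both, alter gene expression.

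NRF2 is a short-lived protein under basal conditions. KEAP1 presents it to the CUL3 ubiquitin ligase for destruction, and oxidants or electrophiles acting on KEAP1 cysteines let NRF2 accumulate. NRF2 then pairs with a small MAF protein and binds antioxidant response elements (AREs) in the promoters of its targets. The enzymes divide the work between them. Superoxide dismutases turn superoxide into hydrogen peroxide, SOD1 in the cytosol and SOD2 in mitochondria. Catalase, a heme enzyme of peroxisomes, and peroxiredoxins such as PRDX1 remove peroxide. Thioredoxin (Txn1) reduces oxidized peroxiredoxin and is recharged by thioredoxin reductase (Txnrd1), a selenoprotein. Sulfiredoxin (Srxn1) repairs overoxidized peroxiredoxins, and glutathione reductase (Gsr) regenerates glutathione. The abundance of NRF2 protein, and hence its activity, is not measured by RNA-seq.

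Stretches that match the ARE core TGACNNNGC on either strand were found in the promoter windows of 5 of the 9 genes that had an entry, and the matches are shown to let the motif be set beside the expression values. Each window ran from 250 bases before to 50 bases after a RefSeq start on GRCm38.p6, and capitals mark the 9-base match within 10 flanking bases on each side. Sequences are given 5′ to 3′ on the strand of the gene.
Nfe2l2: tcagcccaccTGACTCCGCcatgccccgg
Txnrd1: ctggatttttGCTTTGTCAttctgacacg
Srxn1: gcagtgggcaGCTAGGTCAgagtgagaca
Prdx1: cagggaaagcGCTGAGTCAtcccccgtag
Sod1: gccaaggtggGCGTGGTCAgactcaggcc

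The Nfe2l2 stretch lies at chr2:75704885-75704913 on the minus strand, and its match begins at position -240, where the first transcribed base is counted as 0. The Txnrd1 stretch is at chr10:82859104-82859132 on the plus strand, and its match begins at position -92 of the middle one of 3 annotated starts. The Srxn1 stretch is at chr2:152105542-152105570 on the plus strand, and its match begins at position 28, inside the first transcribed bases. The Prdx1 stretch is at chr4:116685456-116685484 on the plus strand, and its match begins at position -133. The Prdx1 match overlaps TGANTCA, the AP-1 motif, which 7.81% of all promoter windows hold. The Sod1 stretch is at chr16:90220696-90220724 on the plus strand, and its match begins at position -56. In Txnrd1, Srxn1, Prdx1 and Sod1 the core reads on the strand opposite to the gene, and in Nfe2l2 on the strand of the gene. No match lay in the windows of Keap1, Txn1, Sod2 and Cat. Of all 27025 genes with a window, 14.0% held at least 1 match, against 55.6% of the 9 genes here, 5 of 9. The genes are textbook NRF2 targets in part, so this share is a description, and a match is not a bound site.

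The knockdown was visible in the target itself. Levels are given as FPKM, fragments scaled to transcript length and library, and the rule for the library scaling is not given. Ncoa4 was at 6.46, 6.19 and 6.02 FPKM in siControl and at 0.770, 0.952 and 0.891 in siNCOA4. With DFO it was at 8.70, 8.31 and 7.52 in siControl+DFO and at 0.850, 1.29 and 1.57 in siNCOA4+DFO. The log2 change was -2.71 ± 0.21 (SE) without DFO and -2.67 with it (limma, adjusted p = 1.25e-05 and 2.83e-05). Libraries of 1 group correlated at 0.926 to 0.955, lowest for siNCOA4+DFO replicate 3, and median-of-ratios factors lay between 1.00 and 1.01. Depth is unknown from FPKM. The summed FPKM ran from 565558 to 599095 in siNCOA4, 615784 to 627826 in siControl, 676428 to 723077 in siControl+DFO and 691486 to 737313 in siNCOA4+DFO, and entries named as small RNAs made up 30.9% to 47.5% of it, most with DFO. Of 10 neuronal markers, Tubb3 alone had a mean of at least 1 FPKM, in every group, while Rbfox3, Map2 and Syp did not. Fibroblast or mesenchymal markers reached 1 FPKM in 6 of 6 cases without DFO and in 5 of 6 with it. Their summed FPKM was 2838 to 3248 in siControl, 2109 to 2266 in siNCOA4, 1805 to 1876 in siControl+DFO and 1570 to 1706 in siNCOA4+DFO. The sum of 4 astrocyte markers, mostly Slc1a3 with Gfap and Aqp4 below 1 FPKM, was 36.4 to 46.0, 22.5 to 26.7, 3.18 to 5.42 and 6.95 to 15.1 in the same order of groups. For 4 microglia markers it was 9.98 to 11.8, 3.79 to 5.60, 0.985 to 1.68 and 0.457 to 2.01. Tmem119 alone of these reached a mean of 1 FPKM, in every group but siControl+DFO. The part of these lists in the results was not tested.

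All 10 genes passed the filter on low values. Their levels spanned from Keap1, at 15.2 ± 0.43 FPKM (mean ± SD, n = 3) in siControl, to Sod1, at 406 ± 66.1. Because FPKM is scaled per length, levels of different genes can be set beside each other. In siControl the order ran Sod1, Txn1 (307 ± 53.7), Prdx1 (283 ± 45.9), Txnrd1 (63.0 ± 3.68), Gsr (26.5 ± 2.55), Srxn1 (26.1 ± 0.13), Nfe2l2 (23.4 ± 1.03), Cat (22.2 ± 1.08), Sod2 (21.9 ± 1.86) and Keap1. The ranges of Sod1 and Txn1, of Txn1 and Prdx1, of Gsr and Srxn1, and of Nfe2l2, Cat and Sod2 overlapped, so these neighbours were not separated by their spread. Txnrd1 and Keap1 stood clear of both sides. Sod1, Txn1 and Prdx1 ranked above 97% of tested genes in every group.

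**Figure D1:**
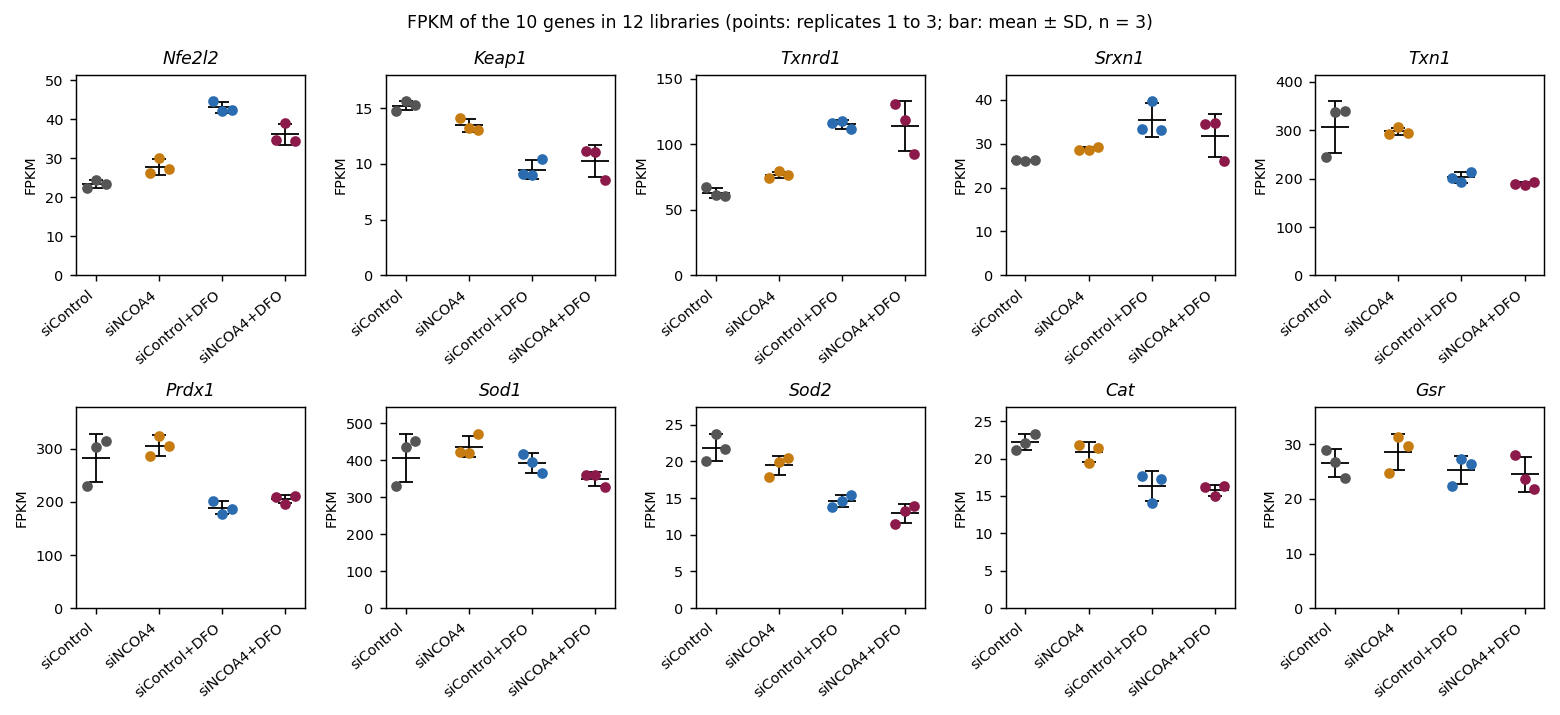
FPKM (y axis, from 0) of each gene in the 4 groups (x axis), with points for replicates 1 to 3 and bars for mean ± SD. Nfe2l2 and Txnrd1 are higher in all DFO libraries than in all libraries without DFO. Keap1, Txn1, Prdx1, Sod2 and Cat are lower, and Gsr overlaps throughout. Between siControl+DFO and siControl, ranges failed to overlap for 60.7% of all genes, and between siNCOA4+DFO and siNCOA4 for 52.6%.

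DFO in siControl cells raised the transcript of the regulator and lowered that of its inhibitor. Nfe2l2, Txnrd1 and Srxn1 rose, while Keap1, Txn1, Prdx1, Sod2 and Cat fell, and Sod1 and Gsr did not pass the test. That is 8 of 10 genes at an adjusted p below 0.05, where 53.4% of all 11924 genes tested passed. By direction it is 3 higher against a background of 27.7%, and 5 lower against 25.7%. The ranges of the same 8 genes did not overlap between the groups, which was so for 60.7% of all genes. None of the 10 also changed more than 2-fold, the size the study required, in this comparison or in any other. Past both thresholds were 18.8% of all genes with DFO against siControl, 1.78% with siNCOA4 against siControl, 15.2% with both treatments against siControl, 11.4% with both against siNCOA4, 2.09% with both against DFO and 0.813% in the interaction. The median log2 change was -0.26 over the 10 genes and -0.01 over all genes. Of all genes called here, 51.8% were higher, and 37.6% when values were scaled to the FPKM sum. In bulk RNA, a change in the share of cells that express a gene and a change within each cell cannot be told apart. The libraries are labelled biological replicates of 1 line, and p-values rest on the spread between them.

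Nfe2l2 stood at 22.4, 24.4 and 23.3 FPKM in siControl, 26.2, 30.1 and 27.1 in siNCOA4, 44.7, 42.2 and 42.3 in siControl+DFO, and 34.7, 39.1 and 34.4 in siNCOA4+DFO. No 2 groups overlapped, and siControl+DFO was the highest. The rise with DFO was 1.84-fold (log2 0.88 ± 0.08, 95% interval 0.71 to 1.05, adjusted p = 2.04e-06, limma with Benjamini-Hochberg adjustment). Keap1, the brake on NRF2, went the other way. It stood at 14.8, 15.6 and 15.3 FPKM in siControl, 14.1, 13.2 and 13.1 in siNCOA4, 9.09, 8.98 and 10.4 in siControl+DFO, and 11.1, 11.1 and 8.56 in siNCOA4+DFO. Every DFO library was below every library without DFO. With DFO alone Keap1 fell by 0.68 ± 0.11 on the log2 scale (95% interval -0.93 to -0.43, adjusted p = 3.16e-04). The ratio of Nfe2l2 to Keap1, both in FPKM, was 1.53 ± 0.03 in siControl, 2.07 ± 0.21 in siNCOA4, 4.56 ± 0.45 in siControl+DFO and 3.56 ± 0.45 in siNCOA4+DFO. For Keap1, 6.4% of the 75-base stretches of its transcripts also occur in the gene model Gm16754, so its reads may be split.

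Txnrd1, which passes electrons from NADPH to thioredoxin, also rose. It was at 67.1, 61.5 and 60.2 FPKM in siControl, 74.7, 79.3 and 76.3 in siNCOA4, 116, 118 and 111 in siControl+DFO, and 131, 118 and 92.8 in siNCOA4+DFO. Both DFO groups lay above both groups without DFO, and siNCOA4+DFO had the widest spread. With DFO alone the rise was 1.83-fold (log2 0.87 ± 0.11, adjusted p = 2.21e-05). Srxn1 was at 26.2, 26.0 and 26.2 FPKM in siControl, 28.6, 28.6 and 29.2 in siNCOA4, 33.3, 39.8 and 33.1 in siControl+DFO, and 34.6, 34.7 and 26.2 in siNCOA4+DFO. Its rise with DFO alone was smaller, 1.35-fold (log2 0.43 ± 0.11, adjusted p = 0.00521), and the adjusted p was 0.0824 when values were scaled to the FPKM sum.

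The transcripts for the protein partners of these enzymes moved in the opposite direction. Txn1, the substrate of Txnrd1, was at 245, 338 and 339 FPKM in siControl, 293, 306 and 294 in siNCOA4, 202, 192 and 213 in siControl+DFO, and 190, 188 and 192 in siNCOA4+DFO. All 6 DFO libraries were below the 6 others. Txn1 fell by 0.59 ± 0.11 on the log2 scale with DFO alone (adjusted p = 6.88e-04). Prdx1, the peroxidase that Srxn1 repairs, was at 230, 303 and 316 FPKM in siControl, 286, 325 and 306 in siNCOA4, 202, 178 and 188 in siControl+DFO, and 209, 196 and 212 in siNCOA4+DFO. It fell by 0.57 ± 0.11 with DFO alone (adjusted p = 9.13e-04). The FPKM ratio of Txn1 to Txnrd1 was 4.92 ± 1.10 in siControl and 1.76 ± 0.15 in siControl+DFO, and that of Prdx1 to Srxn1 was 10.8 ± 1.78 and 5.40 ± 0.82.

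The dismutases differed from each other. Sod2, the mitochondrial manganese enzyme, was at 20.1, 23.8 and 21.7 FPKM in siControl, 17.9, 19.9 and 20.5 in siNCOA4, 13.7, 14.7 and 15.4 in siControl+DFO, and 11.4, 13.3 and 14.0 in siNCOA4+DFO. It fell by 0.58 ± 0.10 on the log2 scale with DFO alone (adjusted p = 4.80e-04). Sod1, the cytosolic copper and zinc enzyme, was at 330, 437 and 451 FPKM in siControl, 422, 418 and 470 in siNCOA4, 417, 395 and 365 in siControl+DFO, and 360, 359 and 327 in siNCOA4+DFO. Its log2 difference with DFO alone was -0.04, with a 95% interval of -0.29 to 0.21 (adjusted p = 0.808), and it was -0.18 (adjusted p = 0.112) without siControl replicate 1. Of the 75-base stretches of Sod1, 12.2% also occur in the gene model Gm8566, and 4.6% of those of Prdx1 occur in Gm21399 or Gm7204. These levels are uncertain to that extent.

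Cat, the heme-containing catalase, was at 21.2, 22.1 and 23.3 FPKM in siControl, 21.8, 19.4 and 21.4 in siNCOA4, 17.7, 14.1 and 17.2 in siControl+DFO, and 16.2, 14.9 and 16.3 in siNCOA4+DFO. It fell by 0.45 ± 0.10 with DFO alone (adjusted p = 0.00226). Gsr, of the glutathione branch, was at 29.0, 26.7 and 23.9 FPKM in siControl, 24.8, 31.3 and 29.6 in siNCOA4, 22.5, 27.3 and 26.4 in siControl+DFO, and 28.1, 23.6 and 21.9 in siNCOA4+DFO. All 4 groups overlapped. Its log2 difference with DFO alone was -0.06 (95% interval -0.33 to 0.20, adjusted p = 0.688).

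**Figure D2:**
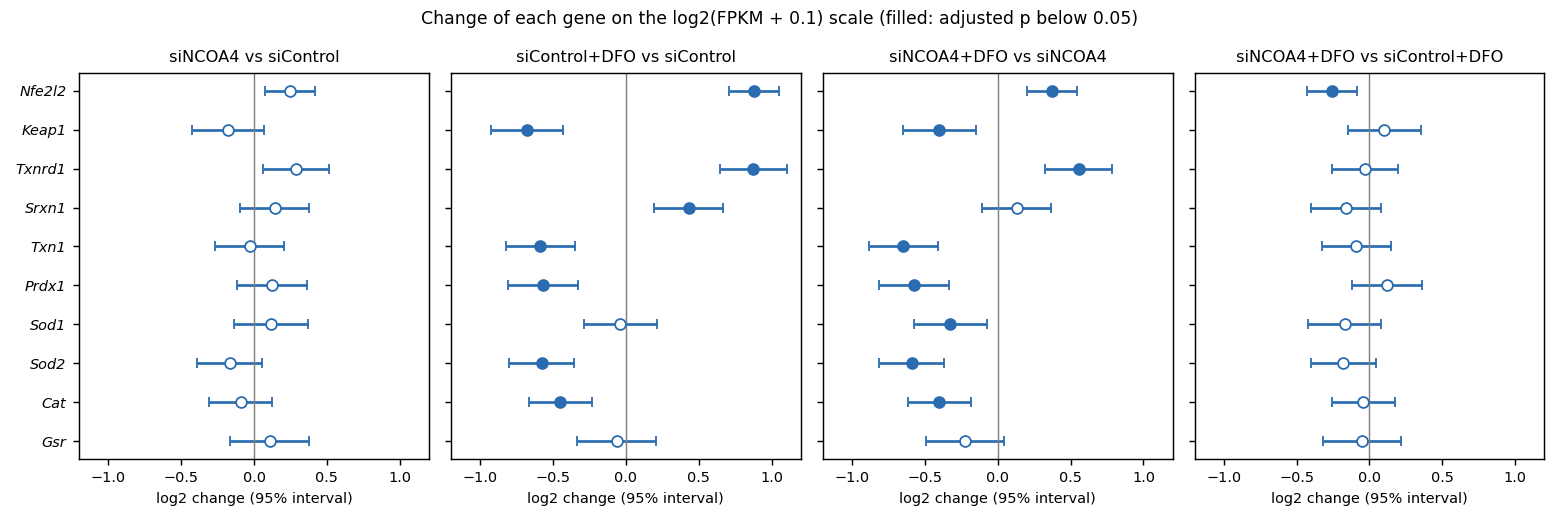
Log2 change of each gene (x axis, points with 95% intervals) in 4 comparisons, with filled points where the adjusted p was below 0.05. DFO moved 8 genes in siControl cells and 8 in siNCOA4 cells, siNCOA4 alone moved none past the threshold, and within DFO-treated cells Nfe2l2 was the only filled point.

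One control library stood apart for the most abundant genes here. In siControl replicate 1, Txn1, Prdx1 and Sod1 differed from the mean of replicates 2 and 3 by -0.46, -0.42 and -0.43 on the log2 scale. These have the shortest principal transcripts of the 10, at 1051, 877 and 641 bases. The same library was low in short transcripts in general. The median difference was -0.28 over 831 genes under 1000 bases, -0.04 over 5067 genes of 1000 to 3000 bases and 0.12 over 4943 longer genes. Short transcripts were also lower with DFO as a class, with a median change of -0.26 against 0.05 for genes of at least 3000 bases. Without siControl replicate 1, the DFO change was -0.74 for Txn1, -0.71 for Prdx1 and -0.18 for Sod1 (adjusted p = 6.18e-06, 3.27e-05 and 0.112). The part of transcript length in these changes was not tested.

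**Figure D3:**
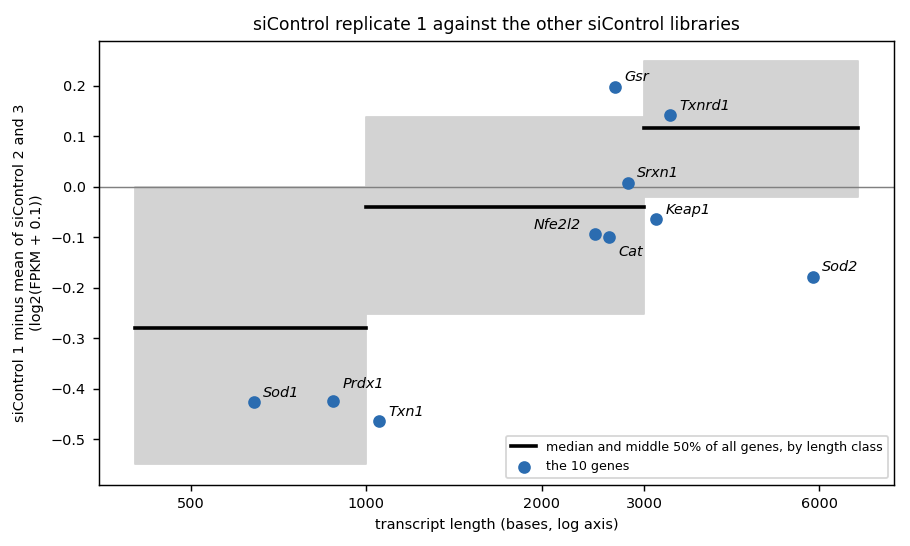
Difference of siControl replicate 1 from the mean of siControl replicates 2 and 3 (y axis, log2) against transcript length (x axis, log scale), with points for the 10 genes and grey boxes for the middle 50% of all genes in each length class. Sod1, Prdx1 and Txn1 sit lowest, between -0.46 and -0.42.

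Ncoa4 siRNA alone moved no gene of the 10 past the threshold. In siNCOA4 against siControl, 0 of 10 genes passed in limma, where 11.7% of all genes did. At an unadjusted p below 0.05 there were 2 genes, Nfe2l2 and Txnrd1, against 26.2% of all genes. The ranges of 4 genes did not overlap between the groups, Nfe2l2, Txnrd1 and Srxn1 being higher and Keap1 lower in siNCOA4. This was so for 32.6% of all genes. Nfe2l2 differed by 0.25 ± 0.08 on the log2 scale (95% interval 0.08 to 0.42, adjusted p = 0.0634) and Txnrd1 by 0.29 ± 0.11 (95% interval 0.06 to 0.52, adjusted p = 0.102). Both passed when values were quantile scaled or scaled to the FPKM sum, with adjusted p of 0.0292 and 0.0175 for Nfe2l2 and of 0.0359 and 0.0293 for Txnrd1. Without siNCOA4+DFO replicate 3, which enters through the shared spread only, the adjusted p of Txnrd1 was 0.0157. The other 8 genes had differences between -0.18 for Keap1 and 0.14 for Srxn1. The median was 0.11 over the 10 genes and 0.00 over all.

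DFO was also compared within siNCOA4 cells. In siNCOA4+DFO against siNCOA4, 8 of 10 genes passed, against 42.7% of all genes. The ranges of the same 8 did not overlap, which was so for 52.6% of all genes. Nfe2l2 (1.30-fold, log2 0.37 ± 0.08, adjusted p = 0.0023) and Txnrd1 (1.47-fold, log2 0.56 ± 0.11, adjusted p = 0.00109) rose, 2 of 10 against 23.1% of all genes. Keap1, Txn1, Prdx1, Sod1, Sod2 and Cat fell, by between 0.32 for Sod1 and 0.65 for Txn1 on the log2 scale, 6 of 10 against 19.6%. Sod1 was the weakest of these (adjusted p = 0.0391). It missed the threshold without a filter on low values (0.0614), with the replicate number as a block (0.0588) and without a mean-variance trend (0.0577). It also missed it when any of 7 libraries was left out, with an adjusted p of up to 0.135 without siNCOA4 replicate 3. Keap1 (adjusted p = 0.0137) reached 0.0508 without siNCOA4 replicate 1. Srxn1 differed by 0.13 ± 0.11 (adjusted p = 0.362), and by 0.26 (adjusted p = 0.0273) without siNCOA4+DFO replicate 3. Scaled to the FPKM sum, which shifted the median of all genes by -0.30, 0 genes were higher and 7 lower. Of all 11928 genes tested at that setting, 1566 were higher and 4741 lower. The share of higher genes among all those called went from 54.1% to 24.8%. Nfe2l2 was then at 0.07 (adjusted p = 0.506), Txnrd1 at 0.25 (adjusted p = 0.0622) and Srxn1 at -0.17, all above the shifted median.

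With both treatments, 7 of 10 genes differed from siControl, against 48.8% of all genes. This comparison shares its siControl libraries with those of DFO and of siNCOA4 alone, so the values are given side by side only. Nfe2l2 changed by 0.62, against 0.88 with DFO and 0.25 with siNCOA4. Txnrd1 changed by 0.84, against 0.87 and 0.29. Txn1 was at -0.68, against -0.59 and -0.03, and Sod2 at -0.76, against -0.58 and -0.17. Keap1 (-0.58), Prdx1 (-0.45) and Cat (-0.49) also passed, with adjusted p between 0.00118 and 0.00495. Prdx1 missed the threshold after quantile scaling, at -0.26 (adjusted p = 0.0534). Srxn1 differed by 0.27 ± 0.11 (adjusted p = 0.0569), and by 0.40 (adjusted p = 0.00237) without siNCOA4+DFO replicate 3. Sod1 was at -0.21 (adjusted p = 0.159), and at -0.35 (adjusted p = 0.00741) without siControl replicate 1. Scaled to the FPKM sum, which shifted the median of all genes by -0.19, 2 genes were higher and 7 lower, with Sod1 at -0.41 (adjusted p = 0.0151) and Gsr at -0.31 (adjusted p = 0.0484) among them. Of all 11928 genes tested at that setting, 2135 were higher and 4050 lower. The share of higher genes among all those called went from 52.1% to 34.5%.

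Knockdown was last compared within DFO-treated cells. The paper reports altered cell shape and lower viability with both treatments together, and no effect on viability with either alone. The part of this in the values was not tested. In siNCOA4+DFO against siControl+DFO, 1 of 10 genes passed, against 16.5% of all genes. This was Nfe2l2, which was lower by -0.26 ± 0.08 on the log2 scale (95% interval -0.43 to -0.08, adjusted p = 0.0454). The groups did not overlap for Nfe2l2 and Sod1, both lower in siNCOA4+DFO, against 34.8% of all genes. The remaining differences lay between -0.18 for Sod2 and 0.12 for Prdx1, and for Txnrd1 the interval was -0.26 to 0.20. The Nfe2l2 call was lost after quantile scaling, where the difference was -0.14 (adjusted p = 0.248). It was lost with the compared groups only (0.0898), without a trend (0.0687), without a filter (0.0515), with robust moderation (0.0509) and with the replicate block (0.0506). It was also lost in 9 of 12 fits that left out 1 library, at an adjusted p of up to 0.131 without siControl+DFO replicate 1.

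The difference between the knockdown effects with and without DFO was tested as an interaction. For Nfe2l2 it was -0.51 ± 0.11 on the log2 scale (95% interval -0.75 to -0.26, adjusted p = 0.0414). It was 1 of 10 genes to pass, against 2.1% of all genes. The adjusted p was 0.0725 after quantile scaling, 0.0556 with the replicate block and 0.0735 without a mean-variance trend. It stayed below the threshold in 1 of 12 fits that left out 1 library, the one without siNCOA4+DFO replicate 2, and reached 0.101 without siControl+DFO replicate 1. The next in size were Txnrd1, at -0.32 (95% interval -0.64 to 0.01, adjusted p = 0.284), and Srxn1, at -0.30 (95% interval -0.64 to 0.03, adjusted p = 0.333). Prdx1, at 0.00, had an interval of -0.34 to 0.34.

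Genes for NRF2 partners and turnover were counted from a list of 12 genes, of which 11 were tested. With DFO alone 8 rose and 1 fell, where 27.7% of all genes rose and 25.7% fell. The 8 include Bach1 and Bach2, at log2 1.09 and 0.75, and Gsk3b, at 0.31, so the 8 are not all genes that aid NRF2. The list median was 0.75 against -0.01 over all genes. Maff and Mafk, small MAF proteins that pair with NRF2 on the ARE, rose from 2.85 ± 0.59 to 64.3 ± 10.4 FPKM and from 7.86 ± 0.42 to 66.2 ± 5.54 FPKM (log2 4.46 and 3.06, adjusted p = 1.23e-08 and 3.05e-08). Sqstm1, the autophagy receptor p62 that can sequester KEAP1, rose from 136 ± 5.35 to 604 ± 38.1 FPKM (log2 2.15, adjusted p = 5.1e-08). Nfe2l1, the relative NRF1, rose by 0.75 (adjusted p = 8.19e-06). With siNCOA4 alone 0 rose and 2 fell, where 4.52% of all genes rose and 7.21% fell. These were Nfe2l1, which fell by 0.39, and Gsk3b, which fell by 0.38 (adjusted p = 0.00856 and 0.0318). Gsk3b is a kinase that marks NRF2 for KEAP1-independent destruction. In siNCOA4+DFO against siControl+DFO 0 rose and 6 fell, where 6.22% of all genes rose and 10.2% fell. Among the 6 were Maff at -1.09, Mafk at -0.74 and Sqstm1 at -0.66. The interaction of Sqstm1 was -0.71 (adjusted p = 0.0596) and that of Maff was -0.84 (adjusted p = 0.159).

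Further NRF2 targets moved both ways, with more falls than rises with DFO. Of 25 tested genes on this list of 28, 7 rose and 12 fell with DFO alone, with a median of -0.36. The share that rose was near the 27.7% of all genes, and the share that fell was above the 25.7% of all genes. Slc7a11, the cystine importer that feeds glutathione synthesis, rose from 1.36 ± 0.18 to 17.4 ± 0.86 FPKM (log2 3.59, adjusted p = 1.99e-09). Hmox1, the heme-degrading oxygenase, rose from 10.7 ± 0.39 to 90.5 ± 7.39 FPKM (log2 3.06, adjusted p = 1.23e-08). Gstm1, a glutathione transferase, fell from 59.1 ± 1.44 to 12.9 ± 1.93 FPKM (log2 -2.20, adjusted p = 1.38e-06). With siNCOA4 alone 2 rose and 4 fell, beside 4.52% and 7.21% of all genes. Slc7a11 rose by 1.29 to 3.48 ± 0.47 FPKM (adjusted p = 8.70e-05). Gsta4, another glutathione transferase, fell from 81.0 ± 5.67 to 32.1 ± 1.90 FPKM (log2 -1.33, adjusted p = 5.39e-05), and G6pdx, which supplies NADPH, fell by 0.65 (adjusted p = 1.97e-04). The lists were drawn up with results of these data known and are not independent evidence of a direction.

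**Figure D4:**
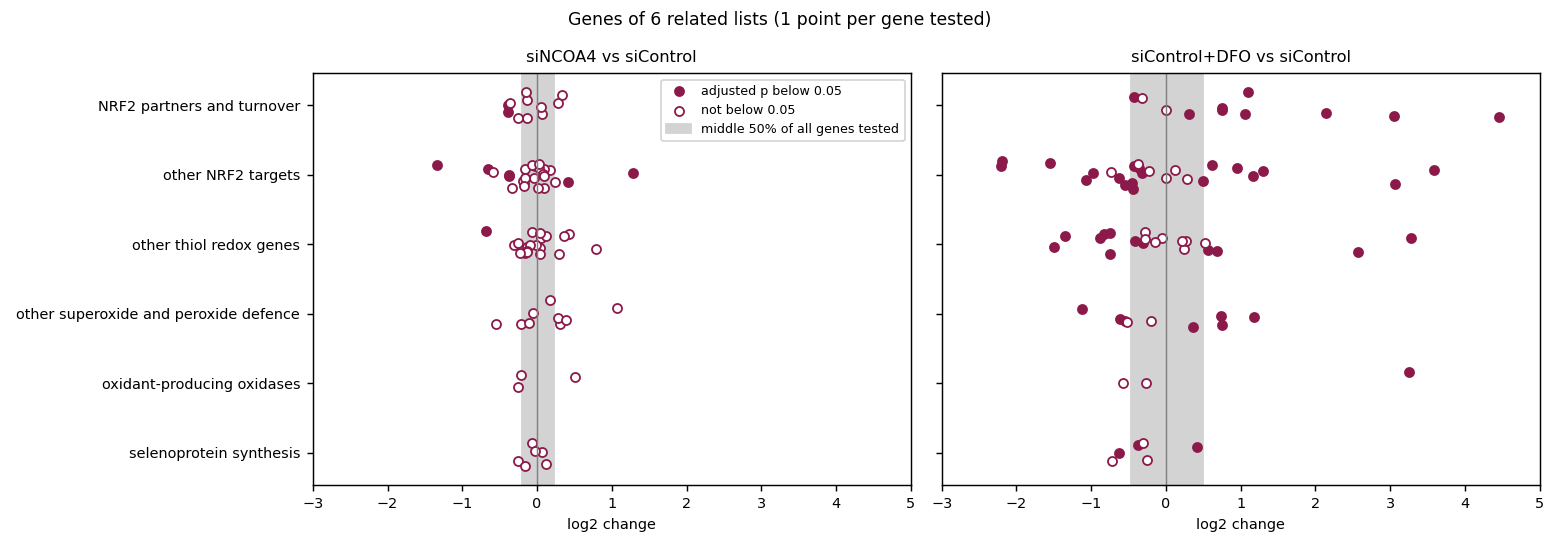
Log2 change (x axis) of each tested gene of 6 related lists (rows) with siNCOA4 and with DFO, filled where the adjusted p was below 0.05, with the grey band marking the middle 50% of all genes. With DFO the list of partners and turnover genes lies mostly to the right of 0, with 8 genes up and 1 down. The list of other targets spreads to both sides, with 7 up and 12 down.

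The rest of the thiol system was mixed as well. Of 20 tested genes, 4 rose and 8 fell with DFO alone, with a median of -0.21. The 12 called stand near the background of 53.4%, so the count is no result about the list. Sesn2, a stress-induced sestrin, rose from 6.79 to 66.8 FPKM (log2 3.28, adjusted p = 8.62e-09). Txnip, which binds and inhibits thioredoxin, rose from 40.7 to 242 FPKM (log2 2.57, adjusted p = 3.16e-09), and its interaction was -0.81 (adjusted p = 0.0174), with 132 FPKM in siNCOA4+DFO. Glrx, a glutaredoxin, fell by 1.50 (adjusted p = 0.00141). With siNCOA4 alone 0 rose and 1 fell, where 4.52% of all genes rose and 7.21% fell, so this count too is no result about the list. The 1 was the mitochondrial thioredoxin Txn2, from 68.5 to 42.7 FPKM (log2 -0.68, adjusted p = 2.19e-04). Txn2 was also lower with DFO, at 37.1 FPKM (log2 -0.88, adjusted p = 1.93e-06).

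Other superoxide and peroxide defence genes gave 4 rises and 3 falls of 9 tested with DFO alone, beside 53.4% of all genes called, and 0 of 9 with siNCOA4 alone, beside 11.7%. Counts this small say little about the list. Gss, which completes glutathione synthesis, rose by 1.17 (adjusted p = 1.06e-04), and Pon2 by 0.75 (adjusted p = 8.84e-04). The extracellular dismutase Sod3 fell by 1.12 (adjusted p = 2.42e-04). Of 10 genes for oxidases that make superoxide or peroxide, 3 passed the filter. Among them, Duox1 had means of 0.12 FPKM in siControl and 0.08 in siNCOA4, under the 0.5 FPKM of the filter. It was thus tested only because of its values in DFO libraries. It stood at 1.90 FPKM with DFO alone (log2 3.26), and its call is not read as a result. Selenoprotein synthesis, on which Txnrd1 depends, gave 1 rise and 2 falls of 6 genes with DFO alone, a share near the background of 53.4%. Sepsecs, which makes the selenocysteine tRNA, rose by 0.42, and Eefsec, the elongation factor that delivers it, fell by 0.62, while Sephs2 fell by 0.37 (adjusted p = 0.0134, 0.0164 and 0.00947).

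Across the 12 libraries, which share their groups, log2 values of Nfe2l2 correlated with those of Txnrd1 at 0.92, of Srxn1 at 0.82 and of Keap1 at -0.89. Txn1 and Prdx1 correlated at 0.94, and Gsr with Nfe2l2 at -0.32. Among 8573 genes with a mean of at least 5 FPKM, the gene nearest to Nfe2l2 in pattern was Mir22hg (r = 0.99). The nearest to Keap1 was Ccnb2 (0.97), to Txnrd1 Igf2bp1 (0.98), to Srxn1 Kifc1 (0.95), to Txn1 Phb (0.98) and to Prdx1 Psmd5 (0.98). For Sod1 it was Shfm1 (0.98), for Sod2 Suds3 (0.97), for Cat Tuba4a (0.98) and for Gsr Hddc3 (0.87). These values describe likeness over the same 12 libraries and carry no test.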

How the data were processed

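The authors deposited 1 table per library with an FPKM value for each of 24347 gene entries. Submitters' processing notes name Trimmomatic 0.33, FastQC, HISAT2 2.1.0, featureCounts, edgeR and the mm10 genome, and the tool that made the FPKM is not given in the sources used here. Libraries came from total RNA with a strand-marking low-input kit, and whether counting used strand is not given either. FPKM are normalized to length and library and carry no depth, so no count test, counting interval or limit of detection could be had. They respond to abundant short RNAs and to fragment selection, which is why other scalings were tried.

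The 4 entries that shared a name were left out, and 6929 of 24343 genes were at 0 in all libraries. Values were taken as log2(FPKM + 0.1). The 11924 genes that reached 0.5 FPKM in 3 or more libraries were tested. The pseudocount understates changes of low genes. limma 3.58.1 (R 4.3.3) estimated 1 mean per group from the 12 libraries together, with empirical Bayes moderation along a mean-variance trend. There were 8 residual degrees of freedom and 4.07 from the prior. P-values are two-sided, adjusted by Benjamini and Hochberg within each of 6 comparisons, and called below 0.05. With 3 against 3 libraries no exact permutation p below 0.1 exists, so single-gene exact tests were not used. The fit was tested on simulated data. Groups and replicate numbers came from the sample labels.

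The 10 genes and the gene lists were chosen with earlier results of these data known. Named genes are the 10, Ncoa4, the 3 largest changes among called members of each list with DFO and with siNCOA4, and the gene of highest Pearson r for each of the 10. Bach1 and Bach2 are named besides these. Promoters are RefSeq windows on GRCm38.p6. Gene lengths and shared stretches come from GENCODE vM21 transcripts, and length is that of the principal transcript. Python 3.11.15, pandas 2.3.3 and matplotlib 3.10.9 were used. Alternatives were pseudocounts of 1 and 0.01, no filter or at least 2 FPKM, 3 scalings, a replicate block, the compared groups alone, other moderation, a fold change above 2 and leaving out each library. Proteomic and qPCR data were not analysed here.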

Additional observations from a re-analysis of the deposited data

Results flagged for a closer look

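For Nfe2l2 the effect of Ncoa4 siRNA passed a test of the difference between cells without and with DFO, but the call was not stable. The interaction term was -0.51 on the log2 scale (limma, adjusted p = 0.0414), where 2.1% of all genes passed, with Nfe2l2 higher in all 3 siNCOA4 libraries than in all 3 siControl libraries, and lower in all 3 siNCOA4+DFO libraries than in all 3 siControl+DFO libraries. Groups failed to overlap for 32.6% and 34.8% of all genes in these comparisons. Over alternative settings the adjusted p ran from 0.0122 to 0.0735, and over fits that left out 1 library from 0.0382 to 0.101, with 1 of 12 such fits below the threshold. The call was also lost with the replicate block, after quantile scaling and without a mean-variance trend.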

How the results depend on the processing

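Of 1370 values of the 10 genes under other settings, 1276 kept their direction and side of the threshold, 44 were no longer past it, 13 newly passed it and 37 changed sign. The sign changes concerned 16 differences that were called neither in the fit reported nor under the other setting. The count of genes with DFO against siControl was 8 in every leave-one-out fit and 7 to 8 under other settings. For both treatments against siControl it was 7 to 8 and 6 to 9, and for both against siNCOA4 alone 6 to 8 and 7 to 8. With a fold change above 2 these 3 counts, the 1 gene of siNCOA4+DFO against siControl+DFO and the 1 gene of the interaction became 0. The count for siNCOA4+DFO against siControl+DFO was 0 without a filter, after quantile scaling, with compared groups only, without a trend and with robust moderation, and 0 to 1 without single libraries. The interaction count was 0 after quantile scaling and without a trend, and 0 to 1 without single libraries. For siNCOA4 alone the count was 2 after quantile scaling, 2 scaled to the FPKM sum, 1 with compared groups only, and 0 to 1 without single libraries. Scaling to the FPKM sum moved the median of all genes by 0.11 (siNCOA4), -0.16 (DFO), -0.19 (both against siControl), -0.30 (both against siNCOA4) and -0.13 (interaction). The cause of these differences was not tested.

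The differences that changed sign did so as follows. After quantile scaling, Txn1 was at 0.14 with siNCOA4, and within DFO-treated cells Txnrd1 was at 0.14, Txn1 at 0.058, Sod1 at 0.037, Cat at 0.010 and Gsr at 0.039, with the Prdx1 interaction at 0.0086. Scaled to the FPKM sum, Txn1 was at 0.076 and Cat at 0.016 with siNCOA4, Srxn1 at -0.17 for both treatments against siNCOA4, and the Cat interaction at -0.085. Without single libraries, siNCOA4 gave -0.19 to 0.048 for Txn1, -0.018 to 0.21 for Prdx1 and -0.025 to 0.20 for Sod1, and DFO gave -0.18 to 0.045 for Sod1 and -0.14 to 0.021 for Gsr. Within DFO-treated cells the ranges were -0.14 to 0.11 for Txnrd1, -0.14 to 0.021 for Cat and -0.15 to 0.026 for Gsr. For the interaction they were -0.14 to 0.094 for Txn1, -0.088 to 0.14 for Prdx1, -0.076 to 0.071 for Sod2 and -0.054 to 0.11 for Cat.

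The labels do not say whether replicate numbers pair the libraries. After removing group means, 18 same-numbered pairs across groups correlated at -0.13 to 0.12, 2 of them above 0.1. Differently numbered ones correlated at -0.17 to 0.16. These values show no sign of pairing and cannot exclude it. With the replicate number as a block, the counts for siNCOA4+DFO against siControl+DFO and for the interaction were 0 and 0, calls over all genes went from 250 to 171 for the interaction, and Sod1 was no longer called for both treatments against siNCOA4 (adjusted p = 0.0588).

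Depth is unknown. The 3 libraries per group gave standard errors of 0.08 to 0.12 on the log2 scale for a difference between groups, which sets what could be called.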
